A study of Drosophila melanogaster with 4 samples.

Results

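Occupancy of Rhino (Rhi) was described in ovaries whose germline was depleted of the acetyltransferase Enok (*enok*_KD), from the IP and the input of this knockdown alone. The landscape consisted of every 1 kb bin of the Rhi-dependent piRNA source loci in which both *enok*_KD libraries had a value above 0, and of the peaks called on the *enok*_KD IP. This gave 2363 of the 2364 tabulated bins, in 88 piRNA clusters, and 817 of the 1883 peaks in the lists of both knockdowns. The bin left out, at 1209001 to 1210000 on 3RHet in cluster 70, had 0 RPM (uniquely mapped reads scaled to library size) in the *enok*_KD input and 4.90 RPM in the IP. The lowest input of a bin that was kept was 0.132 RPM.

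Each knockdown contributed 1 input and 1 Rhi IP library from ovaries of females aged 2 to 3 days and kept at 29 °C. All females carried the MTD-Gal4 driver, which joins 3 heterozygous germline Gal4 transgenes. Per the labels these are otu-GAL4::VP16 (insertion R), GAL4-nos (insertion NGT) and GAL4::VP16-nos (MVD1). The *enok*_KD females carried P{TRiP.HMS02634}attP2 in addition, and the control (GFP_KD) females P{VALIUM20-EGFP.shRNA.1}attP2. The driver acts in the germline, so the somatic follicle cells of the same ovaries were not targeted, and the share of each cell type in the chromatin was not measured. With 1 library per group no difference between the knockdowns could be tested, and the intervals below cover only the counting error, or else the spread over bins. In GEO's description the title and the antibody name Rhino, whereas the short design statement names RNA polymerase II, and the libraries are treated here as Rhi IPs.

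Rhi (HP1D) is the heterochromatin protein 1 paralog of the female germline. Its chromodomain binds histone H3 carrying the H3K9me3 mark, and with Deadlock and Cutoff it forms the complex that licenses transcription of both strands of piRNA clusters. These clusters are stretches of transposon fragments, mostly near the centromeres, whose long transcripts are cut into the piRNAs that silence transposons. Enok is the fly KAT6 enzyme and acetylates lysine 23 of histone H3. The clusters below are called by their numbers in the tables. Cluster 1 is 42AB, the major dual-strand cluster of the ovary. Coordinates are on dm3, which keeps heterochromatin that was placed only roughly as separate sequences such as 3RHet.

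Rhi was above input over most of the source loci in *enok*_KD ovaries. Occupancy is given as the log2 ratio of IP RPM to input RPM, so that 0 is the same share of reads in both libraries. The median over the 2363 bins was 0.93 (95% interval over bins 0.88 to 0.99), with quartiles of 0.42 and 1.63 and a range of -2.29 to 5.01. Of these bins, 1124 (47.6%) were at least 2-fold above input, 408 (17.3%) at least 4-fold and 109 (4.61%) at least 8-fold. Another 248 bins (10.5%) lay below input. In GFP_KD, 1155 of the same bins (48.9%) were at least 2-fold above input and the median was 0.95. The level over all source loci was thus close in both knockdowns. Because RPM is relative to each library, a change common to the whole genome would not show in these values.

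The depth was 8196000 uniquely mapped reads for the *enok*_KD input and 6658000 for the IP, as read from the steps between values and rounded to 1000. A bin held a median of 26 input reads and 38 IP reads in *enok*_KD, both lower limits. At this depth 483 bins (20.4%) were at least 2-fold above input even at the lower end of their 95% counting interval. High occupancy was more common where the input was low. In the lowest quartile of input (up to 2.75 RPM, median 9 reads) the median occupancy was 1.38 and 66.5% of bins were at least 2-fold above input, but only 0.677% overlapped a peak. In the other quartiles the medians were 0.85, 0.73 and 0.85, and 6.43%, 19.7% and 36.0% of bins overlapped a peak. What part low input played in the values of single bins was not tested.

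The clusters differed widely in occupancy. Of the 70 clusters with at least 10 bins, all had a positive median, 29 had a median of at least 1 (2-fold) and 4 a median of at least 2 (4-fold). All 70 held a bin at least 2-fold above input and 60 a bin at least 4-fold above it, but 55 also held a bin below input. The SD over the bins of a cluster was between 0.36 and 1.34. Cluster identity accounted for 29.8% of the variance over bins in *enok*_KD, compared with 50.9% in GFP_KD. The same set of bins, with 42AB included, was thus less clearly sorted by cluster in *enok*_KD. 42AB supplied 130 of the bins, with a median of 2.20 in *enok*_KD and 3.80 in GFP_KD. Its part in this difference was not tested.

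**Figure D1:**
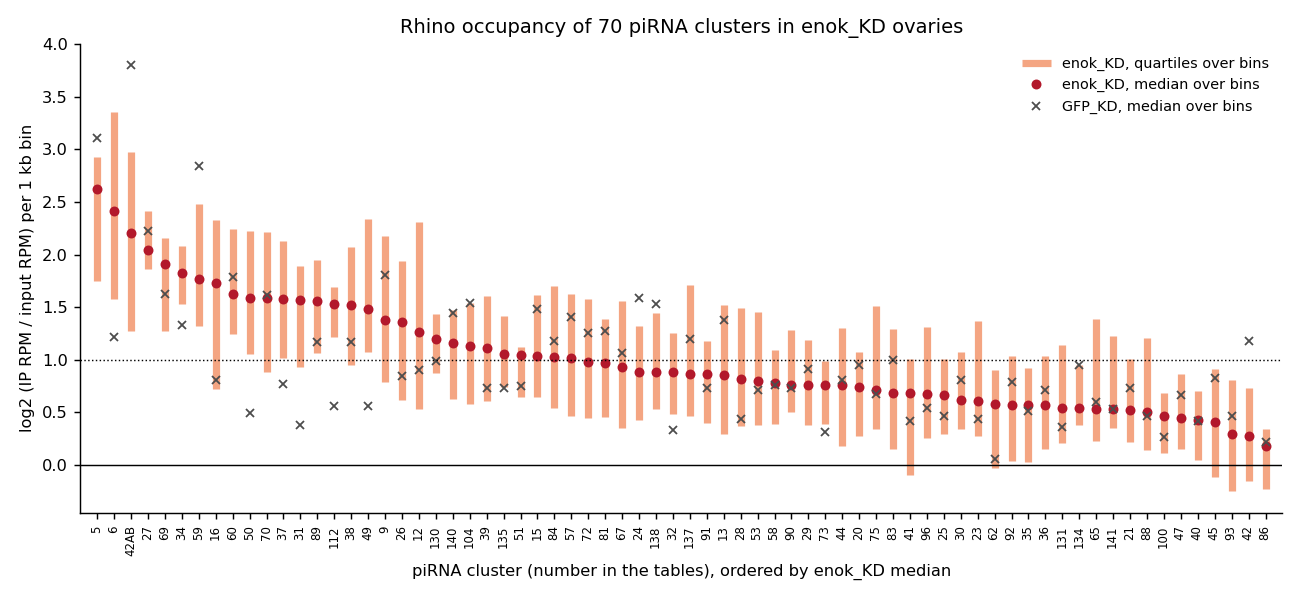
Occupancy of the 70 clusters with at least 10 bins, ordered from left to right by their *enok*_KD median. Red points are *enok*_KD medians of log2 IP over input, orange bars the quartiles over bins and grey crosses the GFP_KD medians, with a dotted line at 1 (2-fold). The *enok*_KD medians run from 2.62 to 0.18, whereas the GFP_KD crosses reach 3.80 at 42AB and lie far below the red points at clusters 6, 16 and 50.

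Cluster 5 on 2L, from 20148259 to 20227000, had the highest median, 2.62 (95% interval over bins 2.09 to 2.87, 35 bins). Of its bins, 32 (91.4%) were at least 2-fold above input, and its GFP_KD median was 3.11. Cluster 6 on 3L, from 23274001 to 23314199, followed with 2.41 (1.68 to 3.15, 36 bins), where GFP_KD had 1.22. 42AB came next, with 2.20 (1.95 to 2.59, 130 bins) against 3.80 in GFP_KD, where it ranked first. The intervals of these 3 clusters overlapped, so their order in *enok*_KD is not resolved. Cluster 27, which lies 29.8 kb from cluster 5 on 2L, had 2.05 (1.78 to 2.49, 15 bins) and differed little from its GFP_KD median of 2.23. Each of these neighbouring clusters of 2L was thus high in both knockdowns.

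Of all 88 clusters, 48 lay in heterochromatin sequences. 3RHet, with a median of 16 input reads per bin, held 18 of the 70 clusters with at least 10 bins. The next 6 clusters by median lay in heterochromatin sequences, 5 of them on 3RHet. They were cluster 69 (median 1.91, GFP_KD 1.63), cluster 34 on 3LHet (1.83, GFP_KD 1.33), cluster 59 (1.77, GFP_KD 2.84), cluster 16 (1.73, GFP_KD 0.81), cluster 60 (1.63, GFP_KD 1.79) and cluster 50 (1.59, GFP_KD 0.49). Clusters 16 and 50 were thus high in *enok*_KD but ranked only 36 and 56 of 70 in GFP_KD. Clusters 69, 59 and 60 had shallow input, with a median of 9, 8 and 12.5 reads per bin. With a pseudocount of 1 RPM their medians were 1.31, 1.18 and 1.23. The log2 of summed IP over summed input was 1.62, 2.30 and 1.23. With the GFP_KD input as denominator their medians were 1.49, 2.29 and 1.24. Of the 10 leading clusters, 6 were also among the 10 leading in GFP_KD. The list depended on the use of the median over bins. When IP and input were summed over each cluster before the ratio, only 5 of the 10 stayed among the 10 highest. Clusters 69, 34, 16, 60 and 50 then ranked 14, 20, 16, 25 and 21 of 70. The authors' label was Enok-unbound for 8 of the 10 and Enok-bound for 2 (clusters 5 and 42AB), compared with 53 and 17 of the 70 ranked clusters. The cut at 10 was not resolved. Cluster 70 on 3RHet, labelled Enok-bound and ranked 11, had a median of 1.585 against 1.587 for cluster 50 (interval 1.06 to 2.17). At the other end stood cluster 86 on 3L (0.18, interval -0.29 to 0.34), cluster 42 on 3R (0.28, -0.30 to 0.90) and cluster 93 on 3RHet (0.30, -0.21 to 0.79). All 3 intervals included 0 and none of the 3 clusters held a peak. Cluster 42 had a median of 1.18 in GFP_KD.

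Among the clusters with most bins, occupancy was moderate. In the Enok-bound class these were 42AB, cluster 20 on 3LHet (0.74, 86 bins) and cluster 15 on 3LHet (1.04, 70 bins). In the Enok-unbound class they were cluster 13 on 3LHet (0.85, 105 bins) and the 3 clusters of 58 bins, 28 on 2R (0.82), 30 on 3RHet (0.62) and 36 on 2RHet (0.57). Of these 7, only 42AB was among the 10 highest medians.

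Median occupancy over the 772 Enok-bound bins was 1.01 (0.92 to 1.11) and over the 1591 Enok-unbound bins 0.91 (0.87 to 0.96). 42AB supplied 130 of the Enok-bound bins, and without it their median was 0.84 (0.76 to 0.94). The sign of the difference between the classes in *enok*_KD therefore rested on 42AB. In GFP_KD the medians were 1.22 over Enok-bound bins, 0.96 over these without 42AB and 0.89 over Enok-unbound bins. There the Enok-bound median was thus the higher with and without 42AB. The difference between the knockdowns was not tested. The class names are the authors' labels. The rule behind them is not given in the sources used here, and 42AB carries the label Enok-bound although the study describes no peak of Enok there.

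By chromosome, 2R had the highest median (1.27, 289 bins), of which 60.6% were at least 2-fold above input. This again came with 42AB, and the other 159 bins of 2R had a median of 0.83. On 3RHet the median was 1.23 (488 bins, 59.0% at least 2-fold) and on 2L 1.13 (172 bins, 56.4%). The 3RHet bins were shallow, with a median of 16 input reads. X had a median of 0.91, 3LHet 0.89, 4 0.84 and 3L 0.69. The lowest medians were on 2RHet (0.63), 2LHet (0.62), XHet (0.58, 17 bins) and 3R (0.51, 20 bins). Pooled over sequences, the main arms had a median of 0.96 and the heterochromatin sequences 0.91, and 23.6% and 11.2% of their bins overlapped a peak.

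The share of the signal that a cluster holds depends on its input and length as well as on its occupancy. 42AB held 15.7% of the IP RPM summed over all bins, from 6.48% of the input RPM. In GFP_KD it held 33.9% of the IP. Cluster 106 on 4, with only 8 bins, held 12.3% of the IP and 9.26% of the input, and cluster 9 on X held 7.23% of the IP but 16.5% of the input. The sum of cluster 9 was decided by a single bin of very deep input. With it the pooled log2 ratio of the 35 bins was 0.06, and without it 1.86, with 5.06% of the IP and 3.72% of the input. The median over its bins was 1.38. Further shares of IP and input were 5.16% and 2.86% for cluster 26, 4.33% and 6.43% for cluster 39, and 4.20% and 1.77% for cluster 12. Cluster 6 held 3.04% of the IP from 0.704% of the input, and its pooled ratio (log2 3.35) was the highest of the ranked clusters. Clusters 15, 16 and 13 held 2.55%, 2.36% and 2.14% of the IP. Because the shares add up to a fixed total, the lower share of 42AB in *enok*_KD raises all others. With 42AB left out of both knockdowns, cluster 6 held 3.60% of the IP in *enok*_KD and 1.12% in GFP_KD, cluster 12 held 4.98% and 3.09%, and cluster 26 held 6.12% and 4.22%. Clusters 16 (2.80% and 2.10%), 39 (5.14% and 4.51%) and 106 (14.6% and 13.0%) were also above GFP_KD, and clusters 9 (8.58% and 11.4%), 15 (3.02% and 3.46%) and 13 (2.53% and 4.12%) below it.

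**Figure D2:**
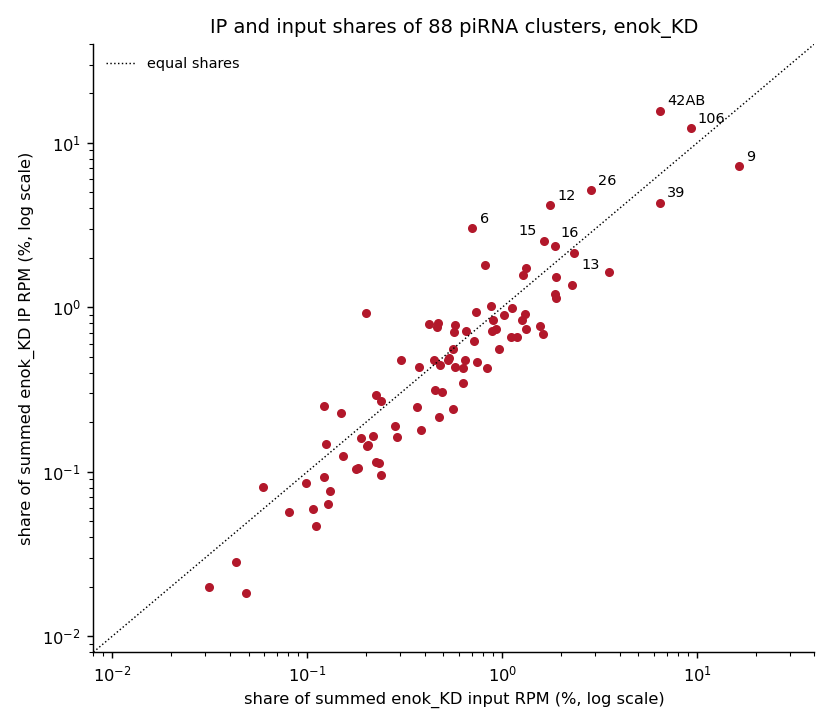
Share of summed *enok*_KD input RPM (x axis) and of summed IP RPM (y axis) of each of the 88 clusters, in percent on log scales, with the 10 largest IP shares named. Clusters above the dotted line hold more of the IP than of the input. 42AB (15.7% of IP, 6.48% of input) and cluster 6 (3.04% and 0.704%) lie well above it, and clusters 9 and 39 lie below it, cluster 9 through 1 bin.

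Together these 10 clusters held 59.0% of the IP RPM, 49.8% of the input RPM and 584 of the bins (24.7%). The 10 leading clusters of GFP_KD held 66.9% of its IP. In *enok*_KD, 8 bins with over 500 RPM of input, in 5 clusters, held 20.2% of all IP RPM and 32.2% of the input. The deepest was at 21835001 on X in cluster 9, with 6780 RPM of input and 2767 RPM of IP (log2 -1.29), and the GFP_KD libraries gave 5376 and 3220 RPM there. In cluster 106, 3 adjacent bins had 893 to 2075 RPM of input and log2 values of 1.63 to 1.73, and at cluster 39 a single bin held 75.1% of the IP. The authors divided RPM by a mappability index, which raises the weight of bins with little unique sequence. Counted as recovered reads, the 10 clusters held 54.3% of the IP, with 15.5% in 42AB, 8.64% in cluster 106 and 6.36% in cluster 6.

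Occupancy varied along each cluster. In 42AB, 111 of 130 bins were at least 2-fold above input, and they formed 2 broad zones separated by a stretch with few tabulated bins. In segments of 40 kb from 2120001, the medians were 2.62, 2.87, 1.57, 0.19, 1.23, 2.75 and 1.48. The segments 2160001 to 2200000 and 2320001 to 2360000 held 39.7% and 35.0% of the IP RPM of the cluster, and all 33 and 28 of their bins were at least 2-fold above input. In contrast, none of the 4 bins between 2240001 and 2280000 was. GFP_KD medians in the same order were 3.55, 4.13, 4.49, 1.97, 3.40, 4.10 and 2.05. The *enok*_KD profile was lower in every segment, with the widest gap in the segment from 2200001, which was the highest in GFP_KD but had only 1.57 in *enok*_KD.

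**Figure D3:**
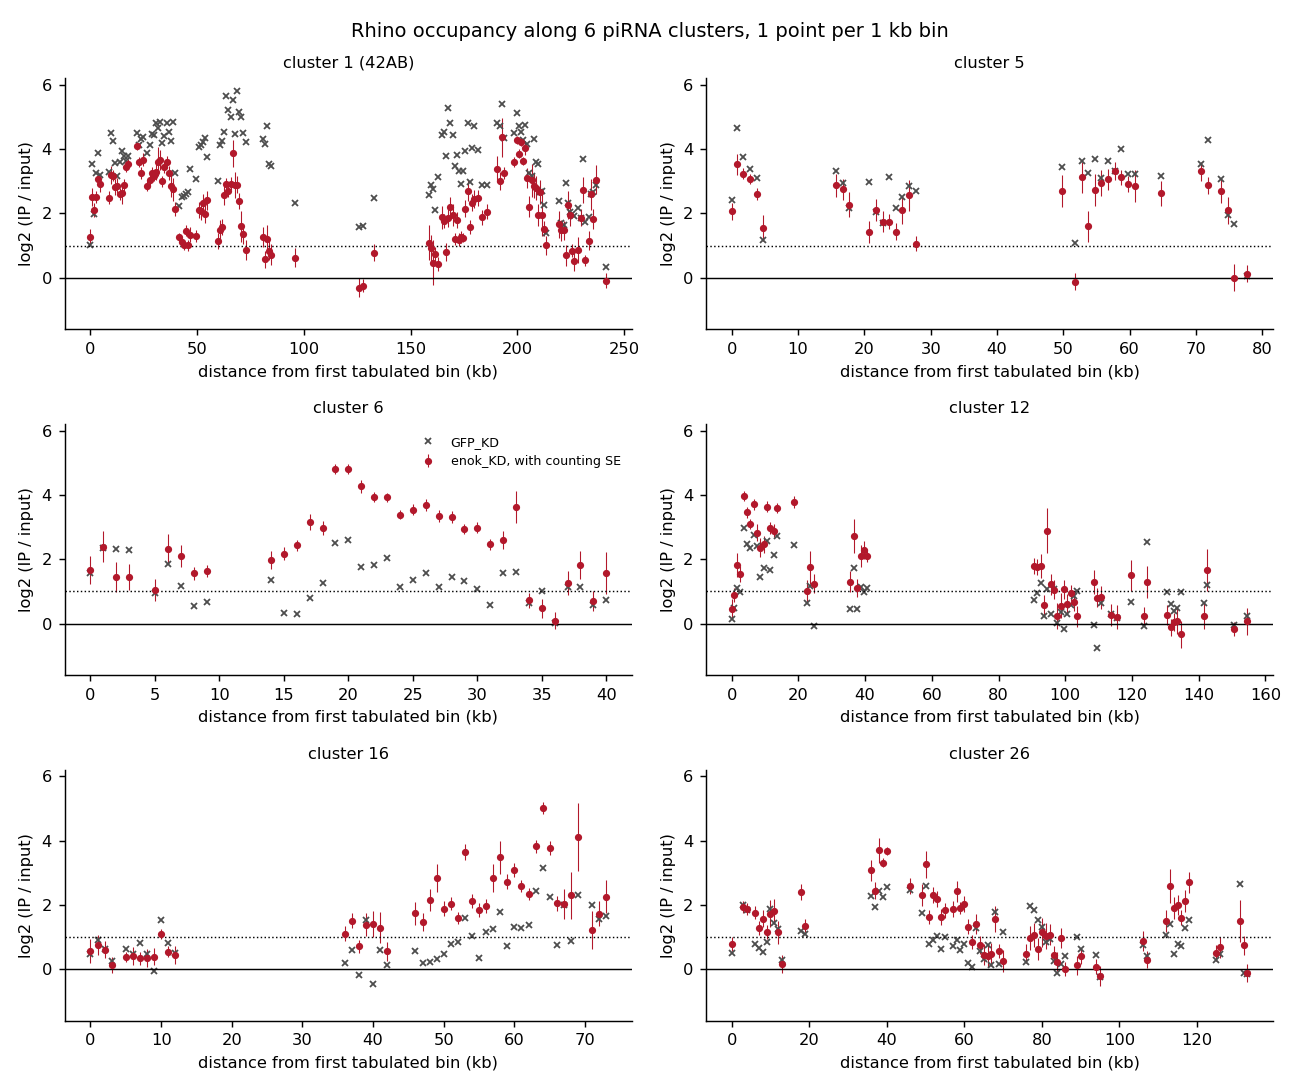
Occupancy along the 6 clusters with most bins at least 4-fold above input, with 1 point per 1 kb bin by distance from the first tabulated bin. Red points are *enok*_KD values of log2 IP over input with their counting SE, grey crosses are GFP_KD values, and the dotted line marks 2-fold. In 42AB most crosses lie above the red points and both have high zones near either end. The crosses of 42AB are highest further inside, at 68.7 kb (5.82), where the red point is at 2.90. In cluster 6, in contrast, the red points form a broad dome above the crosses. In clusters 12 and 16 they lie above the crosses in a high but uneven stretch.

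Cluster 6 showed the opposite relation to GFP_KD, with a dome that rose from log2 1.99 at 23288001 to 4.81 ± 0.16 (counting SE) at 23293001 and declined to 2.46 ± 0.16 at 23305001. The bin at 23307001 was at 3.62 ± 0.50 with 9 input reads, and that at 23308001 at 0.73. In cluster 12 on 3LHet, 13 adjacent bins between 1404001 and 1417000 had a median of 2.98, and the median of the whole cluster was 1.27. This stretch held 11 of the 17 bins of the cluster that were at least 4-fold above input. The other 6 lay further along, among them the bin at 1421001 (3.79 ± 0.19). Cluster 16 was also uneven. A stretch of 24 kb near its end, from 2081001 to 2105000 on 3RHet, had a median of 2.32, whereas the quartiles over the whole cluster were 0.73 and 2.33. In cluster 26 on 3LHet, a single bin at 536001 had 35.9% of the IP of the cluster and a log2 of 3.67 ± 0.12.

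Among single bins with at least 10 input reads, the highest was at 2099001 to 2100000 on 3RHet in cluster 16. It had 8.58 RPM of input and 276 RPM of IP in *enok*_KD (log2 5.01 ± 0.19), and 11.0 and 98.1 RPM in GFP_KD (log2 3.16). The bin at 1271001 to 1272000 on 4, in cluster 3, had 31.5 RPM of input and 929 RPM of IP (4.88 ± 0.11), and 14.4 and 576 RPM in GFP_KD (5.33). The adjacent bins at 23293001 and 23294001 on 3L, in cluster 6, had 15.2 and 12.9 RPM of input and 426 and 360 RPM of IP (4.81 ± 0.16 and 4.80 ± 0.16), with 2.51 and 2.59 in GFP_KD. The fifth was at 921001 to 922000 on 3RHet in cluster 67, with 19.2 and 436 RPM (4.51 ± 0.32), and 9.23 and 245 RPM in GFP_KD (4.73). All 5 overlapped a peak, called on the same IP library. The ratio was higher in *enok*_KD than in GFP_KD at the bins of clusters 16 and 6. At those of clusters 3 and 67 it was lower, although the IP RPM was higher, because the *enok*_KD input was higher as well.

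The lowest bins had few reads. They were at 24502001 on 3L in cluster 58 (24 input and 4 IP reads, -2.29 ± 0.78), 206001 on 3RHet in cluster 137 (17 and 3 reads, -2.20 ± 0.90) and 1877001 on 2RHet in cluster 36 (21 and 5 reads, -1.77 ± 0.72). In GFP_KD the same bins were at 0.71, 0.27 and 1.09.

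Neighbouring bins resembled each other, less so at greater distance. The correlation of *enok*_KD occupancy between bins 1 kb apart was 0.58 (Pearson, 1899 pairs), and it was 0.47 at 2 kb, 0.43 at 5 kb, 0.37 at 10 kb and 0.23 at 20 kb. After subtraction of the median of each cluster it was 0.38 at 1 kb, 0.14 at 5 kb and 0.06 at 10 kb. The pairs share both libraries and much of their sequence context, and the input RPM of neighbours was also correlated (0.60 at 1 kb and 0.24 at 5 kb). These values are descriptions across bins, which are not independent. With the cluster medians subtracted, little resemblance was thus left at 10 kb, and the correlation was -0.08 at 20 kb. The subtraction itself lowers the correlation at distances near the span of a cluster, so no domain width follows from these values.

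Position within the cluster had a small relation to occupancy. In the 62 clusters with at least 12 bins, the interior bins had a median of 1.00 (0.92 to 1.07, 1141 bins) and the outer bins, up to the quartile of position at each end, 0.90 (0.84 to 0.99, 1036 bins), so the intervals overlapped. The interior was higher in 36 of 62 clusters, as it was in 36 in GFP_KD. The single outermost bin at each end had a median of 0.62. Clusters deviated in both directions, from 1.76 at cluster 6, 1.01 at cluster 50 and 0.95 at cluster 59 to -1.18 at 42AB. The segments of 42AB between 2200001 and 2320000, with medians of 1.57, 0.19 and 1.23, lie mostly in its interior. When each cluster was divided into 10 equal parts along the chromosome, the medians were between 0.75 in part 10 and 1.26 in part 3.

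**Figure D4:**
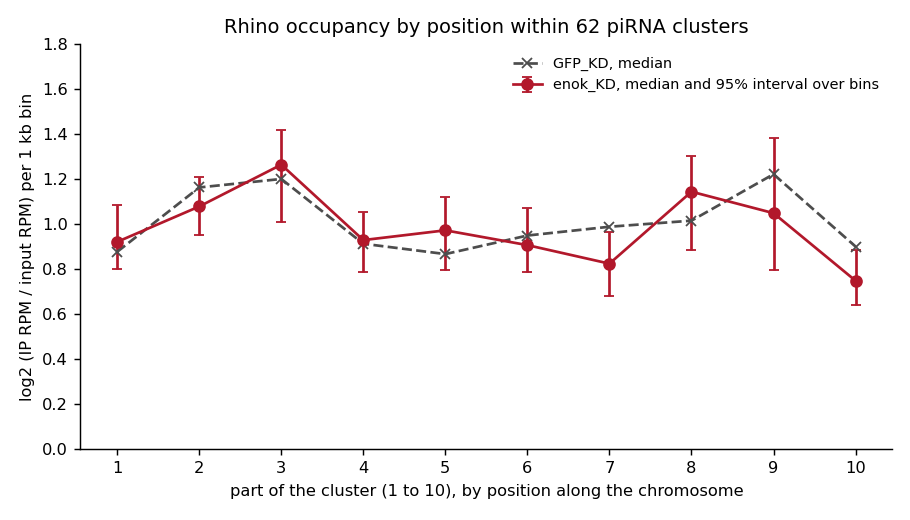
Median occupancy by position, each cluster divided into 10 equal parts along the chromosome, for the 62 clusters with at least 12 bins. Red points are *enok*_KD medians of log2 IP over input with 95% intervals over bins, and grey crosses are GFP_KD medians. Part 10 is lowest in *enok*_KD (0.75) and part 3 highest (1.26), and most intervals overlap.

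How wide the domains are was examined first with the bins. Adjacent bins at least 2-fold above input formed 485 runs, of which 270 (55.7%) were a single bin. Only 47 runs had a length of at least 5 bins, but they held 36.8% of the enriched bins. The longest was 24 kb, from 2081001 to 2105000 on 3RHet in cluster 16. Next came 20 kb in cluster 6 (23288001 to 23308000 on 3L), 19 kb in cluster 59 (16001 to 35000 on 3RHet), 19 kb in cluster 34 (4001 to 23000 on 3LHet), 17 kb in cluster 50 (621001 to 638000 on 3RHet) and 16 kb in 42AB (2343001 to 2359000). In all, 14 runs of at least 10 bins lay in 10 clusters, and 5 of them in 42AB. Of the other 9, cluster 12 on 3LHet and cluster 27 on 2L had 1 each of 13 kb and 11.3 kb. The long runs differed in how many of their bins overlapped a peak. In the run of cluster 59 the bins had a median of 7 input reads and a median counting SE of 0.63, and 1 of its 19 bins overlapped a peak. In cluster 50, 5 of 17 bins of the run did, compared with 18 of 20 in cluster 6, 16 of 24 in cluster 16 and 14 of 19 in cluster 34. At the 4-fold threshold there were 213 runs, and the longest was the 19 kb of cluster 6. In GFP_KD the 2-fold threshold gave 509 runs, the longest of 29.7 kb. Since 80.4% of bins had a tabulated bin directly after them, gaps in the tables also end runs, and the lengths are lower limits.

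Domains were next described from the peak list. The 817 *enok*_KD peaks covered 571 kb, with a median length of 371 bp (95% interval 354 to 396, range 189 bp to 17.1 kb) and a median fold enrichment of 3.60 by the authors' caller. Most were short, 525 (64.3%) under 500 bp, whereas the 51 peaks (6.24%) of at least 2 kb held 37.9% of the covered length. Inside the clusters lay 404 peaks with 59.4% of the length, with a median of 425 bp against 342 bp for the 413 peaks outside. The median fold enrichment was 3.99 inside and 3.25 outside.

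Peaks and bins rest on reads of the same IP library, so a relation between them is partly built in. They were still not interchangeable. Of all bins, 371 (15.7%) overlapped a peak, and their median occupancy was 2.12 (2.01 to 2.27), against 0.77 (0.73 to 0.83) without one. No bin below input overlapped a peak (0 of 248). The share was 1.31% for bins between 0 and 1 on the log2 scale, 20.9% between 1 and 2, 44.1% between 2 and 3, and 69.7% (Wilson 95% interval 60.5 to 77.6) from 3 upwards. In this last band, bins without a peak had a median of 20 IP reads and those with one 589.

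The longest peak was also that with the highest fold enrichment, the single peak of 17.1 kb at 23289186 to 23306292 on 3L in cluster 6 (24.8). It covered nearly the whole dome described above, and peaks took up 49.4% of the span of this cluster. Peaks at 2094586 to 2101266 on 3RHet in cluster 16 (21.7), 1405802 to 1410531 and 1412497 to 1418878 on 3LHet in cluster 12 (19.3 and 17.7), and 1644380 to 1646887 on 3RHet in cluster 37 (16.9) followed among the peaks inside clusters. Peaks at 1178941 to 1179581 on 3LHet in cluster 131 (16.0), 760887 to 764622 on 2R in cluster 39 (15.9), and 2160314 to 2167694 and 2176589 to 2181805 in 42AB (14.9 and 13.3) completed those in clusters among the 10 highest. The remaining one, at 20619 to 23595 on 4 (19.2), lay in no tabulated cluster. The other 9 longest peaks lay on 4 outside the clusters (11.1 and 10.7 kb), in cluster 26 (7.98 kb), in 42AB (7.38 and 5.98 kb), in cluster 12 (6.98, 6.46 and 6.38 kb) and in cluster 16 (6.68 kb). The strongest and the longest peaks thus came from largely the same few clusters.

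A total of 56 of the 88 clusters held an *enok*_KD peak (64 held a GFP_KD peak). 42AB had the most peak length, 64.4 kb in 62 peaks, compared with 136 kb in 85 peaks in GFP_KD. It was followed by cluster 12 (37.0 kb, GFP_KD 23.1 kb), cluster 26 (21.1 kb, GFP_KD 8.15 kb), cluster 9 (20.0 kb, GFP_KD 19.9 kb) and cluster 6 (19.8 kb, GFP_KD 7.45 kb). These 5 held 47.9% of the peak length in clusters. Clusters 37 (19.2 kb, GFP_KD 3.26 kb) and 31 (13.8 kb, GFP_KD 0.849 kb) also had much more peak length in *enok*_KD. Peak length was lower than in GFP_KD at cluster 5 (13.1 kb, GFP_KD 22.4 kb) and cluster 13 (11.2 kb, GFP_KD 16.0 kb), as it was at 42AB, and higher at cluster 16 (12.7 kb, GFP_KD 4.63 kb). Of the 10 clusters with most peak length in *enok*_KD, 3 were thus below GFP_KD. Choosing them by *enok*_KD length favours clusters above GFP_KD, so this count does not speak for the other clusters. All peaks in clusters covered 341 kb in *enok*_KD and 329 kb in GFP_KD.

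When peaks within 1 kb of each other were joined, 444 domains resulted, with a median length of 445 bp. Of these, 35 had a length of at least 5 kb and 11 of at least 10 kb, and the 35 held 48.3% of the covered length. In clusters lay 26 of the 35, including 3 in 42AB. The GFP_KD list gave 567 domains, 32 of at least 5 kb, with 6 in 42AB. The longest *enok*_KD domain in 42AB was 26.1 kb (2160314 to 2186399, 87.5% covered), followed by 16.2 kb (2333477 to 2349679) and 14.1 kb (2144627 to 2158764). In GFP_KD the longest domains of 42AB were 50.3 kb (2305836 to 2356091) and 49.3 kb (2150649 to 2199916). The longest joined domains of 42AB were thus shorter in *enok*_KD, whereas the number of domains there was alike (25 and 23). Runs of bins could not reach such lengths, since gaps between tabulated bins ended them. In GFP_KD, 129 of the 130 bins of 42AB were at least 2-fold above input, compared with 111 in *enok*_KD. Both knockdowns had 5 runs of at least 10 bins there, the longest of 16 kb, so the runs cannot decide whether domains were shorter. The IP libraries behind the peak lists also differed in depth (6658000 reads in *enok*_KD and 8025000 in GFP_KD), and what part this had in the lengths was not tested. Outside 42AB, the longest domains in clusters were the single peak of cluster 6 and domains of 14.4 and 11.7 kb in cluster 12, 13.9 kb in cluster 37 and 10.4 kb in cluster 26.

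**Figure D5:**
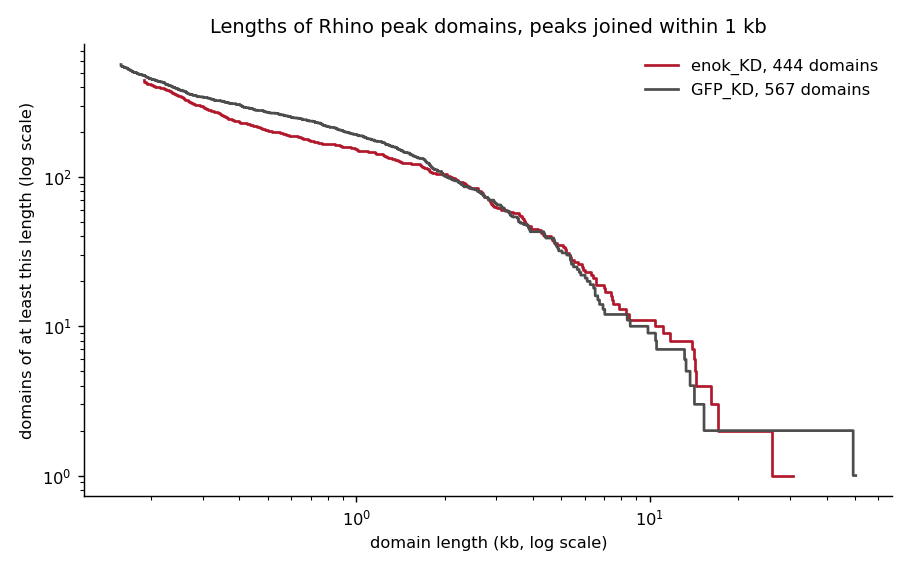
Number of domains (y axis) of at least a given length in kb (x axis), both on log scales, for peaks joined within 1 kb. The red line is *enok*_KD with 444 domains and the grey line GFP_KD with 567. The longest *enok*_KD domain is 30.9 kb, whereas 2 GFP_KD domains, both in 42AB, are near 50 kb, and the lines lie close together between 2 and 10 kb.

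The longest *enok*_KD domain, 30.9 kb at 1286291 to 1317142 on 4, lay in no tabulated cluster. Its length depended on the joining distance, since the longest domain of the list was 17.1 kb with no joining, 70.9 kb within 2 kb and 74.0 kb within 5 kb. The domain on 4 belonged to a stretch from 1286291 to 1351830 near the end of 4 in which 28 peaks covered 51.4 kb (78.4%). Enrichment was low there, with a median fold of 2.57 and a range of 1.51 to 6.55. The GFP_KD list had 30 peaks in this stretch, covering 47.1 kb (71.9%) with a median fold of 2.45, so the stretch was occupied to a like extent in both knockdowns. In total, 55 of the 413 peaks outside the clusters were on 4 and held 29.0% of the length outside. X (13.6%), 3L (11.3%) and 3R (10.7%) came next. The mitochondrial sequence, which has no nucleosomes, held 9 peaks with a median fold of 1.62 and a highest of 1.73.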

How the data were processed

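Rhi ChIP-seq libraries were an input and an IP from *enok*_KD ovaries and the same from GFP_KD ovaries, 1 of each, grouped by their labels. Per the labels and the study, the authors trimmed reads with Trimmomatic and aligned single-end reads to dm3 with Bowtie2 (version 2.2.1), keeping reads that mapped uniquely without mismatch, so repeats that cannot be placed do not contribute. The deposited bin tables give RPM per 1 kb bin, which the authors divided by a mappability index. The deposited peak lists, for which the processing notes name MACS2, give a fold enrichment (a ratio) and, as −log10, a p-value and a q-value, with 1-based positions. The control and settings of the caller are not given in the sources used here.

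Occupancy was log2 of IP over input without a pseudocount. Whole reads were recovered with the step found from 600 low values per library and a mappability index of 0.1 to 1 in 3 decimals, common to the 4 libraries. They were found in all 2364 bins (100%), with 1 possible index in 1203 bins (50.9%). In the others the smallest index was used, so reads are lower limits and counting SEs upper limits. In 2364 simulated bins, 97.2% came back exactly. No count test was run, since each group has 1 library and bins are not replicates. Medians carry 95% intervals from binomial order statistics and shares Wilson intervals. Runs joined directly adjacent bins of 1 cluster with a log2 of at least 1, and domains joined peaks within 1 kb.

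Named clusters were the 10 with the highest median and the 3 with the lowest among those with at least 10 bins, the 10 with the largest IP share, the 3 with most bins in each class (ties kept) and 42AB. Named bins were the 5 highest and 3 lowest with at least 10 input reads, named peaks the 10 highest by fold and the 10 longest, and named domains and runs the 10 longest. Clusters 3, 31, 37, 58, 67, 70, 131 and 137 are mentioned for their bins or peaks, cluster 70 also for its rank. Clusters 56, 71, 133 and 142 are mentioned for opposite signs in the knockdowns. Those domains or values beyond the rule were chosen after seeing the data. Members and lists were chosen with earlier results of these data known. Clusters were not assigned genes, as no dm3 annotation was used here. Analyses used Python 3.11.15, numpy 2.4.6, pandas 2.3.3, scipy 1.17.1 and matplotlib 3.10.9.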

Additional observations from a re-analysis of the deposited data

Results flagged for a closer look

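In 4 small clusters the median log2 IP over input had opposite signs in the knockdowns. Cluster 56 on 2R (4 bins) had -0.18 in *enok*_KD and 0.11 in GFP_KD, and cluster 142 on 2R (3 bins) had -0.24 and 0.23. Cluster 71 on 2R (5 bins) had 0.52 in *enok*_KD and -0.11 in GFP_KD, and cluster 133 on 2RHet (7 bins) had 0.19 and -0.18. With 1 library per group, the difference was not tested.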

How the results depend on the processing

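Of 137 alternative values, 83 stayed within the interval of the value reported or, for counts and lengths, within 1.5 times it. The other 54 did not. Although 0 changed sign, counts, lengths and shares cannot do so, and the difference between the Enok-bound and Enok-unbound medians was not among the values. Of the 64 alternatives for results other than those of single clusters, 36 moved in this sense. Of the alternatives, 5 were chosen after seeing the data. Among the 72 for single clusters, 17 moved, mostly when IP and input were summed before the ratio (cluster 9, 0.06 instead of 1.38, or 1.86 without its deepest bin). No paired analysis was possible because there was 1 library per group, and none could be left out for the same reason. The cause of the changes was not tested unless the setting gives it. Shallow input and the mappability index limit single bins.

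With a pseudocount of 1 RPM, which lowers bins of low input by construction, the median was 0.78 over all bins, 0.86 over Enok-bound and 0.76 over Enok-unbound bins, and 39.3% of bins were 2-fold above input. With input at or above the lower quartile these were 0.81, 0.91, 0.76 and 41.3%. With every cluster counted once they were 0.86, 0.82, 0.86 and 39.8%. Without 42AB the Enok-bound median was 0.84 and the 2-fold share 45.4%. On the main arms the class medians were 1.45 and 0.85. The IP share of the 10 leading clusters was 67.8% for IP minus input, 53.5% without 42AB, 84.7% on the main arms and 53.3% without bins above 500 RPM of input. The 4-fold threshold gave 213 runs, and with 3 outermost bins at each end the interior exceeded the edge by 0.26 instead of 0.093.

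With only the peaks from the median fold enrichment upwards there were 409 peaks with a median of 507 bp, 261 domains and 72.5% of the length in clusters. On the main arms there were 499 peaks, 278 domains and 49.2%. The share in clusters was 54.2% without 42AB and 36.9% over tabulated bins only. Joining within 0, 2 and 5 kb gave 817, 338 and 283 domains, the longest of 17.1, 70.9 and 74.0 kb.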
